A study of Mus musculus with 10 samples.

Results

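Collagen genes were described in 10 liver RNA libraries of C57BL/6 mice. The genes were all those of the deposited table whose symbol is Col, a type number, the letter a and a chain number, which gave 40 collagen genes among 29657 genes. The control group was 5 libraries from mice labelled wild type that received AAV8-NC, a control adeno-associated virus. The other group was 5 libraries from mice that received AAV8-TBG-galectin-3 and are labelled as having hepatocyte galectin-3 knocked down. TBG is a promoter that works in hepatocytes. What the virus carries to lower galectin-3 is not described. Both viruses were given by vein, and every mouse ate CDAHFD, a high-fat diet that lacks choline and produces fatty liver with inflammation and fibrosis, for 8 weeks. No group ate a normal diet, so the effect of the diet itself is not measured, and the labels give neither age nor sex.

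Collagens are proteins of 3 chains wound into a triple helix, and each gene encodes 1 kind of chain. Fibrillar collagens form the rope-like fibres of scar tissue, while type IV collagen forms the sheet of basement membranes. Type VI collagen forms beaded filaments beside cells, and fibril-associated collagens decorate the surface of fibres. Multiplexins are basement membrane collagens that carry sugar chains. In the fibrotic liver the fibrillar chains come mainly from activated stellate cells and portal fibroblasts, whereas Col18a1 is also made by hepatocytes.

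Levels are in FPKM, fragments per kilobase of transcript and per 1000000 fragments. Read from the steps between low FPKM values, library depth was 15.6 to 19.4 in units of 1000000 fragments. These depths are rough: 11.9 to 14.2% of the low values fell on whole multiples of the step within 0.02. Lgals3, the targeted gene, stood at 70.8 ± 22.9 FPKM under AAV8-NC and 74.2 ± 20.1 FPKM in the other libraries (SD, n = 5 each), with a log2 fold change of 0.08 and a 95% interval from -0.47 to 0.62 (limma, adjusted p = 0.856). An exact two-sided permutation test on FPKM gave p = 0.825, where 0.00794 is the smallest possible. A lower level of the target was not detectable in whole liver, so the second group is called labelled knockdown, and each direction rests on the labels. The libraries also differed by transcript length. Per doubling of length, the log2 value of a gene departed from its mean by 0.035 ± 0.011 under AAV8-NC and by -0.035 ± 0.019 in the labelled knockdown libraries (SD, n = 5 each). Collagen transcripts are long, and calls that end when this trend is removed are named below.

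Of the 40 collagen genes, 18 reached 0.5 FPKM in at least 5 libraries and were tested. These were 8 fibrillar, 3 basement membrane, 3 beaded filament, 2 fibril-associated and 2 multiplexin genes. At a limma adjusted p under 0.05, 6 of the 18 fell and 2 rose. Over all 13471 tested genes, 9.65% were called lower and 7.13% higher. The 6 that fell were Col1a1 of type I collagen, Col5a1 and Col5a2 of type V, Col4a2 of type IV, Col14a1 and Col15a1. The 2 that rose were Col5a3 and Col27a1. The median log2 fold change of the 18 was -0.40, against -0.035 for all tested genes. The groups overlapped in each of the 18, whereas over all tested genes 7.48% were lower and 5.66% higher without overlap.

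Transcript length bore on these counts. The longest transcript of the 18 tested collagen genes had a median length of 6084 bases, against 2970 for all tested genes, and 17 of the 18 were among the 2638 longest. Of those 2638, 16.6% of genes were called lower and 2.05% higher. With the length trend removed from each library, Col5a2 and Col15a1 were called lower and Col5a3 and Col27a1 higher, where all tested genes gave 5.46% and 6.78%. The log2 fold changes of Col1a1, Col1a2 and Col3a1 became -0.71, -0.57 and -0.60 (adjusted p = 0.0731, 0.0788 and 0.0858).

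The calls lay close to the threshold and depended on single libraries. Without control 2, control 4 or labelled knockdown 3, 0 collagen genes were called lower by limma, although 10, 10 and 9 of the 18 were lower at an unadjusted p under 0.05. The number called lower was 1 without control 1, labelled knockdown 2 or labelled knockdown 5, 2 without control 3, 3 without labelled knockdown 1, 7 without control 5 and 10 without labelled knockdown 4. The number called higher was 2 without control 1, 1 without control 5 or labelled knockdown 3, and 0 in the other 7 of these fits. Calls over all tested genes moved as well. With all libraries, 1300 genes were called lower and 960 higher. Without control 2, control 4 or labelled knockdown 3, 549, 812 and 746 were called lower, and 1736 without labelled knockdown 4. Those called higher ranged from 442 to 966 in these fits. Before adjustment, 11 of the 18 were lower and 2 higher at p under 0.05 with all libraries, where all tested genes gave 19.6% and 13.9%. With a single library left out these numbers were 9 to 11 and 2.

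**Figure D1:**
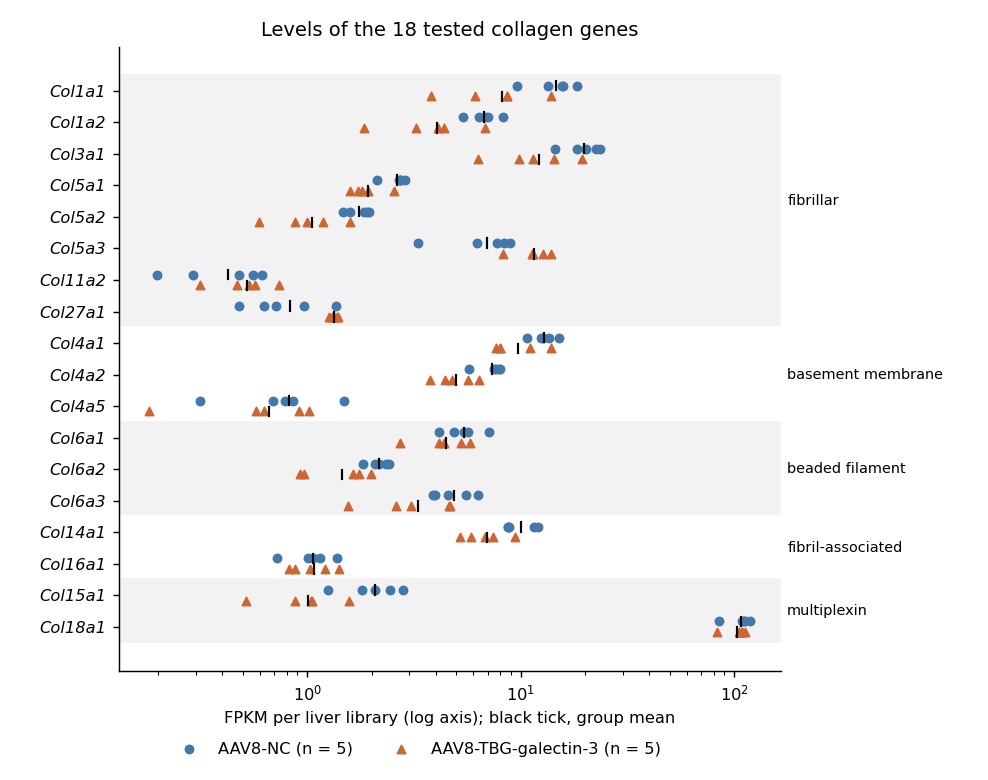
Level of each tested collagen gene in every liver library, in FPKM on a log axis, by class. Circles are the 5 AAV8-NC libraries, triangles the 5 AAV8-TBG-galectin-3 libraries and black ticks the group means. Col18a1 lies near 100 FPKM in both groups, and the triangles of Col5a3 and Col27a1 lie mostly to the right of the circles.

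Stretches of promoter are shown for 5 fibrillar genes, so that the genes that rose, Col5a3 and Col27a1, can be set beside Col1a2, Col3a1 and Col5a1. Each is the 150 bases before the start of transcription, from RefSeq on GRCm38.p6, 5′ to 3′ on the strand of the gene. The positions are chr6:4505468-4505617 (plus strand) for Col1a2, chr1:45311388-45311537 (plus) for Col3a1, chr2:27886275-27886424 (plus) for Col5a1, chr9:20815068-20815217 (minus) for Col5a3 and chr4:63215262-63215411 (plus) for Col27a1. Capitals mark matches, on either strand, to any of 4 motifs. The CCAAT box was searched by the letters of its name. The GC box was searched as GGGCGG. For the TATA box the letters were TATAAA. An AP-1 site was a match to TGANTCA, where N is any base.
Col1a2: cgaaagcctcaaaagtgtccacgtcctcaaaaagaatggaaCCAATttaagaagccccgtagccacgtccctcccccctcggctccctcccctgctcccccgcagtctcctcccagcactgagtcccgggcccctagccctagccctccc
Col3a1: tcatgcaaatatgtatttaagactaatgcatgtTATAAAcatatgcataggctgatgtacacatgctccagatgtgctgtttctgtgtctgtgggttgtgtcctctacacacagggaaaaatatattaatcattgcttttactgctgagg
Col5a1: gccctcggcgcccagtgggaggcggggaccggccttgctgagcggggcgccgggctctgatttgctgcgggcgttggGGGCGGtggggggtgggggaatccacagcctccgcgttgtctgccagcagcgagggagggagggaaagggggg
Col5a3: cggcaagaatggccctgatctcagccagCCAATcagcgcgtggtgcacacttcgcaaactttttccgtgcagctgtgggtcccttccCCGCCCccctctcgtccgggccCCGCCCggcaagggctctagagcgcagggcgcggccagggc
Col27a1: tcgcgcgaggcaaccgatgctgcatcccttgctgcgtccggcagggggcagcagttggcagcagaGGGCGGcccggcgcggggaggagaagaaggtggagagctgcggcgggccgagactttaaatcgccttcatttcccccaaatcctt

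Col1a2 held a CCAAT box beginning 109 bases before the start, and Col5a3 held one 122 bases before it. Col5a3 also held 2 GC boxes on the other strand, 63 and 41 bases before the start. Col5a1 and Col27a1 each held 1 GC box, at 73 and 85 bases, and Col3a1 held a TATAAA match at 117 bases. A window of 300 bases, 250 before to 50 after the start, was given for 33 of the 40 collagen genes and for 15 of the 18 tested ones. Of the 15, 11 windows held a GC box and 7 a CCAAT box, where 35.7% and 37.4% of all 32851 windows did. The 15 windows were also richer in G and C, with a median of 61.7% against 52.7% for all windows. The part of this in the motif counts was not tested. A single window was taken per collagen gene, while the share over all windows counted every window. A TATAAA match was in 2 of the 15 and an AP-1 match in 1, against 13.6% and 7.81% of all windows. In the windows of 300 bases, Col5a3 and Col27a1, which rose, both held a GC box. So did Col5a1 and Col4a2, both called lower, and Col1a2, not called, whose GC boxes lie outside the stretch shown. Col3a1, not called, and Col15a1, called lower, held 0. Col1a1, Col5a2 and Col14a1, also called lower, had no window and could not be searched. A link between this match and direction was not tested. A match is a run of letters and not evidence of binding.

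The fibrillar class was led by type I and type III collagen, the main fibres of scar. Col1a1 (ENSMUSG00000001506), the chain present in 2 copies in each type I molecule, held 15.7, 18.4, 13.4, 15.7 and 9.65 FPKM in control libraries 1 to 5 and 8.65, 6.12, 8.62, 13.8 and 3.79 FPKM in labelled knockdown libraries 1 to 5. Of the labelled knockdown libraries, number 4 alone lay inside the control range, and the other 4 lay below every control. Col1a1 thus went from 14.6 ± 3.26 to 8.20 ± 3.73 FPKM (SD, n = 5 each), with a log2 fold change of -0.83, an SE of 0.26 and a limma adjusted p of 0.0499. The call survived 5 of 11 other settings and 2 of 10 omissions of a single library, and its adjusted p reached 0.113 without control 2.

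Col1a2, the partner chain of Col1a1, held 6.77, 8.29, 6.35, 7.01 and 5.37 FPKM under AAV8-NC and 4.10, 3.22, 4.39, 6.81 and 1.84 FPKM in the labelled knockdown libraries. Its log2 fold change was -0.68 (SE 0.22, adjusted p = 0.0532). Col3a1, the single chain of type III collagen, held 18.3, 23.5, 20.1, 22.4 and 14.4 FPKM under AAV8-NC and 14.3, 9.76, 11.4, 19.4 and 6.28 FPKM in the labelled knockdown libraries. Its log2 fold change was -0.72 (SE 0.24, adjusted p = 0.0569). Neither passed the test with all libraries, and both passed without labelled knockdown 4, at adjusted p of 0.0133 and 0.0167. With the replicate number as a block, both also passed, at 0.0405 and 0.0314, although the numbers were not taken as pairs. Col1a2 passed in 5 of 11 other settings and 1 of 10 omissions of a single library. Col3a1 passed in 2 of 11 and 2 of 10. In these omissions their limma adjusted p reached 0.119 and 0.125.

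These 3 genes ordered the libraries in nearly the same way. Control 2 was the highest and control 5 the lowest control for each of them. Labelled knockdown 4 was the highest and labelled knockdown 5 the lowest of its group for each. The summed FPKM of the 3 genes was 41.1 ± 7.67 under AAV8-NC and 24.5 ± 10.4 in the labelled knockdown libraries (SD, n = 5 each). The sum in labelled knockdown 4 was 40.0, inside the control range of 29.5 to 50.2, and the remaining 4 libraries of that group held 11.9 to 27.04. The ratio of Col1a1 to Col1a2, both per length, was 2.14 ± 0.204 under AAV8-NC and 2.01 ± 0.0822 in the labelled knockdown libraries, close to the 2 to 1 make-up of the type I molecule. The ratio of Col1a1 to Col3a1 was 0.734 ± 0.0831 and 0.661 ± 0.0695.

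Type V collagen sits in the core of type I fibres and limits their width. Col5a1 held 2.68, 2.75, 2.88, 2.73 and 2.13 FPKM under AAV8-NC and 1.92, 1.73, 1.81, 2.56 and 1.58 FPKM in the labelled knockdown libraries. It fell by 0.32 on the log2 scale (SE 0.098, adjusted p = 0.0441), and labelled knockdown 4 alone lay inside the control range. Col5a2 held 1.899, 1.95, 1.47, 1.85 and 1.58 FPKM under AAV8-NC and 1.19, 0.873, 1.001, 1.59 and 0.596 FPKM in the labelled knockdown libraries. It fell by 0.44 (SE 0.12, adjusted p = 0.0312), and again only labelled knockdown 4 lay inside the control range. Of 10 omissions of a single library, the Col5a1 call survived 2 and the Col5a2 call 4, and Col5a1 was not called with the length trend removed (adjusted p = 0.125). Col5a2 lies next to Col3a1 in the RefSeq gene order.

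Col5a3, the third type V chain, went the other way. It held 8.94, 8.38, 6.26, 7.73 and 3.32 FPKM under AAV8-NC and 13.9, 12.7, 8.25, 11.3 and 11.4 FPKM in the labelled knockdown libraries. Of the labelled knockdown libraries, number 3 alone lay inside the control range, and the other 4 lay above every control. Col5a3 rose from 6.92 ± 2.25 to 11.5 ± 2.11 FPKM, with a log2 fold change of 0.70 (SE 0.21, 95% interval 0.23 to 1.16, adjusted p = 0.0448). The call survived 8 of 11 other settings and 3 of 10 omissions of a single library. It was lost with a pseudocount of 0.1 FPKM (adjusted p = 0.0506), with array weights (0.0869) and with no filter on low genes (0.121). With the length trend removed the log2 fold change was 0.81 (adjusted p = 0.0316).

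The ratio of Col5a3 to Col5a1 lay between 1.56 and 3.33 under AAV8-NC and between 4.40 and 7.33 in the labelled knockdown libraries. Labelled knockdown 4, which resembled the control libraries in type I and III collagen, had a ratio of 4.40, above every control. Col5a3 made up 12.6 ± 2.56% of the summed fibrillar FPKM under AAV8-NC and 29.7 ± 9.11% in the labelled knockdown libraries (SD, n = 5 each). These ratios follow from genes already called in opposite directions and carry no test.

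Col27a1, a fibrillar collagen best known from cartilage, held 1.36, 0.970, 0.714, 0.628 and 0.479 FPKM under AAV8-NC and 1.38, 1.33, 1.39, 1.31 and 1.26 FPKM in the labelled knockdown libraries. The labelled knockdown values were nearly equal, with an SD of 0.0522 FPKM against 0.345 in the control libraries, and control 1 lay among them. Col27a1 rose by 0.37 on the log2 scale (SE 0.11, adjusted p = 0.0456). That call survived 1 of 10 omissions of a single library, and its adjusted p was 0.0552 with the replicate block. Control 5 was the lowest control for both Col5a3 and Col27a1, and control 1 the highest for both. Col11a2, a minor chain of cartilage fibres, was low, at 0.428 ± 0.176 and 0.524 ± 0.153 FPKM (adjusted p = 0.542). It reached 0.5 FPKM in exactly 5 libraries.

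**Figure D2:**
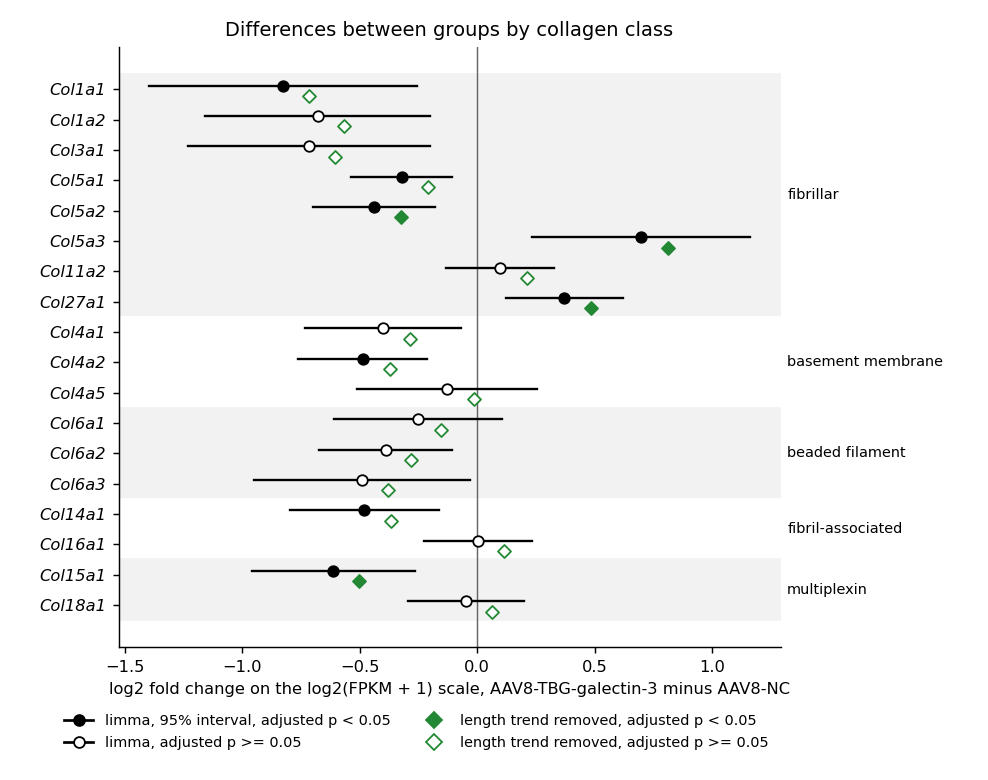
Difference between the groups for the 18 tested collagen genes, on the log2(FPKM + 1) scale. Circles and lines are the limma estimate and its 95% interval, and diamonds the estimate with the length trend removed; filled symbols have an adjusted p under 0.05. Col5a3 and Col27a1 lie to the right of 0, and Col1a1, Col5a1, Col5a2, Col4a2, Col14a1 and Col15a1 to the left, with filled circles.

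In the basement membrane class, Col4a1 and Col4a2 encode the chains found in nearly all basement membranes. They are transcribed away from each other from 1 shared start region. In the RefSeq windows their first bases lie 22 bases apart, counted with both ends, and each start lies inside the transcript of the other gene. The stretch from start to start, at chr8:11312805-11312826, is shown here on the plus strand, that of Col4a2, because values of both genes meet there.
Col4a1 and Col4a2 starts: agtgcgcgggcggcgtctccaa

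Col4a2 held 7.62, 7.87, 8.03, 7.52 and 5.71 FPKM under AAV8-NC and 5.65, 3.75, 4.77, 6.37 and 4.44 FPKM in the labelled knockdown libraries. It fell by 0.49 on the log2 scale (SE 0.13, adjusted p = 0.0261), and 4 of the 5 labelled knockdown libraries lay below every control. The call survived 9 of 11 other settings and 5 of 10 omissions of a single library, and the adjusted p was 0.0525 with the length trend removed. Col4a1 held 12.5, 12.7, 15.1, 13.5 and 10.7 FPKM under AAV8-NC and 11.02, 7.68, 8.03, 13.9 and 7.96 FPKM in the labelled knockdown libraries. Its log2 fold change of -0.40 did not pass (SE 0.15, adjusted p = 0.0898), and labelled knockdown 1 and 4 lay inside the control range. The ratio of Col4a1 to Col4a2 was 1.76 ± 0.130 and 1.93 ± 0.1999. No source used here gives the strand setting of the counting, so reads from the overlapping ends of both genes could not be told apart.

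Col4a5, on the X chromosome and best known from the kidney filter, stood at 0.826 ± 0.422 and 0.664 ± 0.329 FPKM (adjusted p = 0.643), with the lowest value, 0.181 FPKM, in labelled knockdown 5. Its neighbour Col4a6 and the pair Col4a3 and Col4a4 averaged 0.122, 0.107 and 0.0934 FPKM over all libraries and were not tested. Liver type IV collagen RNA was thus carried by Col4a1 and Col4a2. The summed FPKM of the class was 21.4 ± 2.31 under AAV8-NC and 15.7 ± 4.02 in the labelled knockdown libraries.

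The beaded filament class held Col6a1, Col6a2 and Col6a3, the chains that assemble into type VI collagen. Of these, 0 passed limma and 2 had an unadjusted p under 0.05. Col6a2 held 2.41, 2.16, 1.83, 2.07 and 2.35 FPKM under AAV8-NC and 1.75, 0.922, 1.63, 1.98 and 0.962 FPKM in the labelled knockdown libraries (log2 fold change -0.39, SE 0.13, adjusted p = 0.0581). Its neighbour Col6a1 stood at 5.44 ± 1.11 and 4.46 ± 1.17 FPKM (log2 fold change -0.25, adjusted p = 0.303). Col6a3, the largest chain, stood at 4.85 ± 1.06 and 3.29 ± 1.34 FPKM (-0.49, adjusted p = 0.127), with labelled knockdown 5 lowest at 1.55 FPKM. The 95% intervals ran from -0.61 to 0.11 for Col6a1 and from -0.95 to -0.03 for Col6a3. Col6a4, Col6a5 and Col6a6 averaged under 0.03 FPKM and were not tested.

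Among fibril-associated collagens, Col14a1, which binds the surface of type I fibres, held 8.84, 12.1, 11.6, 8.69 and 8.73 FPKM under AAV8-NC and 7.43, 5.19, 6.79, 9.37 and 5.86 FPKM in the labelled knockdown libraries. All but labelled knockdown 4 lay below every control. Col14a1 fell by 0.48 on the log2 scale (SE 0.14, adjusted p = 0.0426). Of 10 omissions of a single library the call survived 2, and it was lost with the replicate block (adjusted p = 0.0803) and with the length trend removed (0.0819). Col16a1, another member of the class, stood at 1.06 ± 0.236 and 1.07 ± 0.243 FPKM (log2 fold change 0.0047, 95% interval -0.23 to 0.23, adjusted p = 0.980). Col12a1, Col9a2, Col9a3, Col20a1 and Col22a1 were below the filter, and Col12a1 averaged 0.372 FPKM, the highest mean among the 22 collagen genes not tested.

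Both multiplexins were measured, and they differed. Col15a1, a collagen of capillary and other basement membranes, held 2.82, 2.44, 1.26, 2.07 and 1.81 FPKM under AAV8-NC and 1.04, 0.515, 0.877, 1.56 and 1.05 FPKM in the labelled knockdown libraries. Control 3 and labelled knockdown 4 made the groups overlap. Col15a1 fell by 0.61 on the log2 scale (SE 0.16, adjusted p = 0.0269), and its group mean fell to 48.6% of the control mean. The call survived 10 of 11 other settings, removal of the length trend among them (adjusted p = 0.0454), and 5 of 10 omissions of a single library.

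Col18a1, the source of the fragment endostatin, was by far the most abundant collagen RNA per length. It held 119, 112, 112, 108 and 84.7 FPKM under AAV8-NC and 83.1, 108, 112, 105 and 109 FPKM in the labelled knockdown libraries. Its log2 fold change was -0.048 (SE 0.11, 95% interval -0.29 to 0.20, adjusted p = 0.796), and the sign turned with the length trend removed (0.064). Col18a1 made up 51.2 ± 1.65% of all collagen FPKM under AAV8-NC and 58.0 ± 8.02% in the labelled knockdown libraries. Without it, the summed collagen FPKM was 102 ± 14.3 under AAV8-NC and 76.2 ± 20.1 in the labelled knockdown libraries, where labelled knockdown 4 held 105 and the other 4 held 54.8 to 87.2. The summed values are descriptions and were not tested.

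The remaining classes were at the edge of detection. Network-forming Col8a1, Col8a2 and Col10a1, the transmembrane collagens Col13a1, Col17a1, Col23a1 and Col25a1, the anchoring fibril gene Col7a1, Col28a1, and the fibrillar genes Col11a1 and Col24a1 were all below the filter. Of the 22 genes not tested, 11 were above 0 in every library and 7 were at 0 in at least 5 libraries. The highest value of any of them in a single library was 0.514 FPKM, for Col12a1 in control 5.

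**Figure D3:**
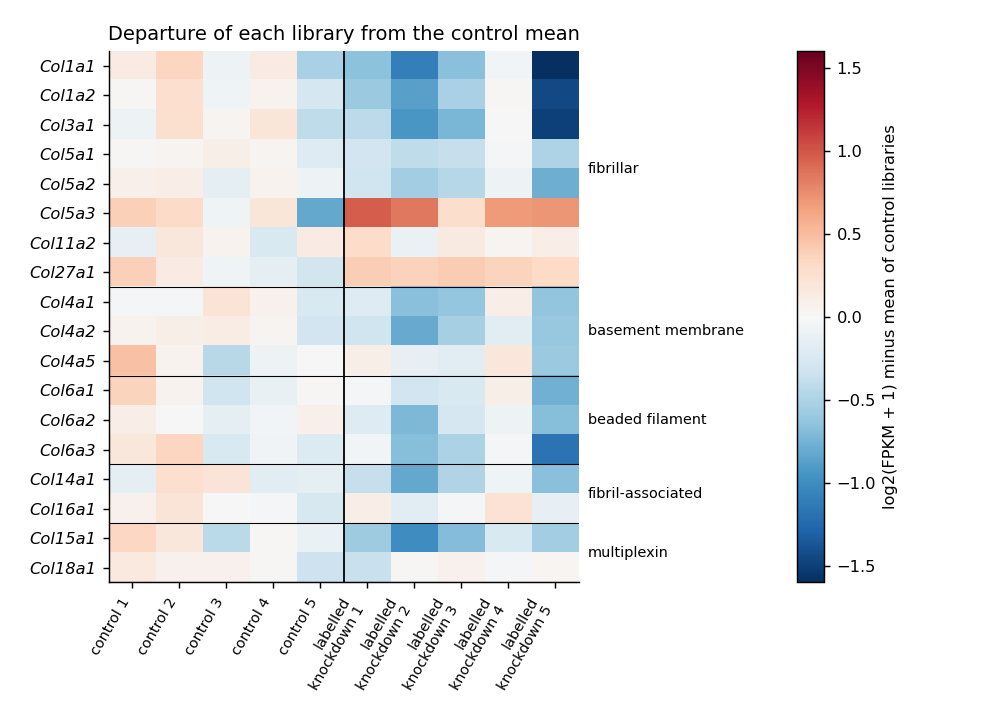
Departure of each library from the mean of the control libraries for the 18 tested collagen genes, on the log2(FPKM + 1) scale; red is higher and blue lower. Labelled knockdown 4 is pale in most rows of the lower genes, labelled knockdown 2 and 5 are the bluest columns, and Col5a3 and Col27a1 are red in all 5 labelled knockdown libraries.

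Labelled knockdown 4 held the highest value of its group for 14 of the 18 tested collagen genes, and labelled knockdown 5 and 2 the lowest for 9 and 7. Control 5 held the lowest control value for 10 of the 18, and control 2 and 1 the highest for 8 and 7. In labelled knockdown 4 the sums of the fibrillar, basement membrane and beaded filament classes were 57.2, 21.6 and 12.5 FPKM, all inside the control ranges of 37.5 to 64.9, 17.5 to 23.7 and 9.85 to 15.1. These libraries also stood apart in some markers of other cells. Labelled knockdown 4 held the most Dpt of its group, a portal fibroblast marker, at 7.46 FPKM, and labelled knockdown 5 the least, at 1.52, with the others at 2.69 to 4.84. Labelled knockdown 5 was also lowest of its group for Epcam, a cholangiocyte marker, at 0.920 FPKM against 3.47 to 7.88 in the others, and for Spp1 at 39.0 FPKM against 117 to 279.7. Not all members of these marker lists followed. Acta2, listed with Spp1 as an activated myofibroblast marker, was highest of its group in labelled knockdown 5, at 2.73 FPKM. Thy1, listed with Dpt, was highest in labelled knockdown 1, at 0.999 FPKM against 0.534 in labelled knockdown 4. The part of these cells in the collagen values was not tested.

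**Figure D4:**
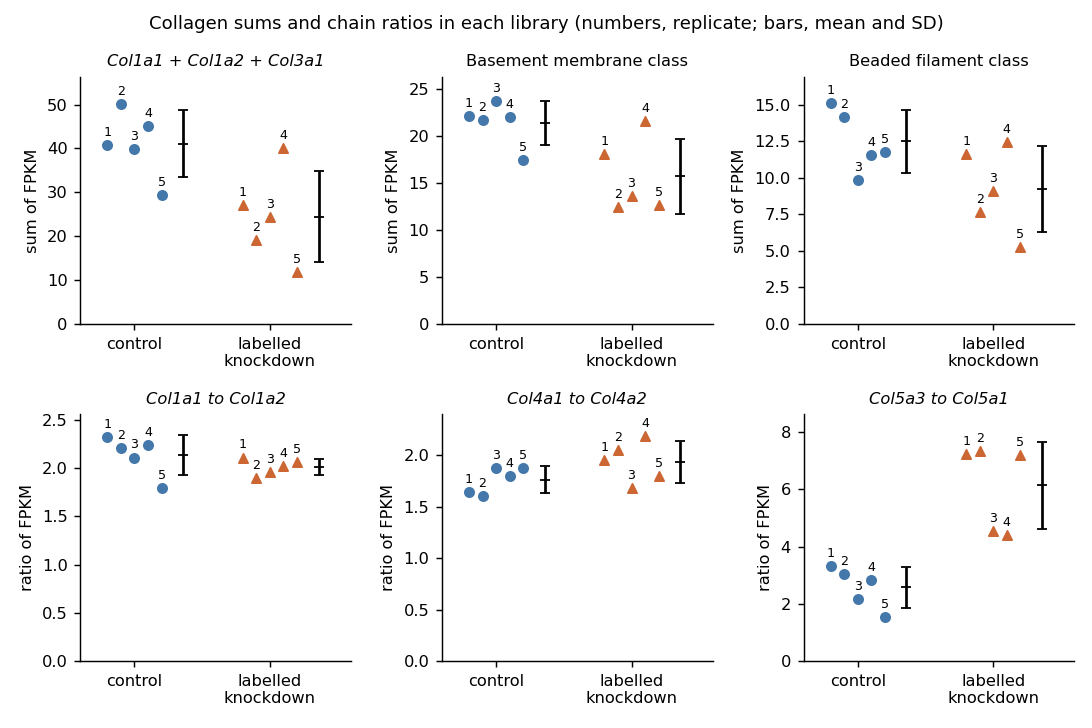
Summed FPKM (top) and ratios of FPKM between chains (bottom) in each library; points are libraries numbered by replicate, and bars the group mean and SD (n = 5 each). The Col1a1, Col1a2 and Col3a1 sum is below every control in 4 of the 5 labelled knockdown libraries, and the Col5a3 to Col5a1 ratio lies between 4.40 and 7.33 in all 5 labelled knockdown libraries.

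Per the authors' deposited table, 9 collagen genes were lower and 2 higher at a q-value under 0.05, where 4.51% and 4.34% of all genes in that table were. Of these 11, Col15a1 alone carried the authors' deposited mark of significance (deposited ratio 0.486, q-value 0.00248), a mark given to 1.34% of genes in that table. The 2 higher genes in the authors' deposited table were Col5a3 (ratio 1.66, q-value 0.00945) and Col27a1 (ratio 1.61, q-value 0.0152). Col1a2, Col3a1 and Col6a2 had q-values of 0.0336, 0.0293 and 0.0443 in the authors' deposited table. They missed the limma threshold above.

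Genes that make, process, bind or break down collagen were taken from 6 lists of 84 genes, of which 65 were tested. Of the 65, 18 were called lower and 1 higher, which is 27.7% and 1.54%, where all tested genes gave 9.65% and 7.13%. The 18 and the 27.7% still count Adamts14 and Fbn1, whose calls carry no weight for the reason given below. With lists of 6 to 20 tested genes, a count of 1 of 8 is close to the 9.65% of all tested genes. The lists were drawn up with earlier results of these data known. In the endoplasmic reticulum, where chains are folded and modified, 6 of 20 tested genes fell and 1 rose. P4hb, a subunit of the enzyme that hydroxylates collagen proline and an abundant folding enzyme of all secretory cells, went from 782 ± 29.5 to 622 ± 31.1 FPKM without overlap (adjusted p = 0.0202; 0.0562 with the replicate block). Creb3l1, a transcription factor that promotes collagen synthesis, went from 2.48 ± 0.254 to 1.47 ± 0.528 FPKM (adjusted p = 0.0249), and Mia2, which helps export large cargo, from 21.9 ± 0.889 to 17.9 ± 1.65 FPKM (0.0300). The Mia2 call survived 4 of 10 omissions of a single library and was lost with the length trend removed (adjusted p = 0.163), with median-of-ratios scaling (0.0733) and with the replicate block (0.0518). Fkbp14, a chaperone for some collagen types, rose from 2.30 ± 0.119 to 3.21 ± 0.434 FPKM without overlap (adjusted p = 0.0197), a call that survived all 11 other settings and all 10 omissions of a single library. Serpinh1, the collagen chaperone HSP47, averaged 17.3 ± 3.64 and 12.7 ± 5.39 FPKM and did not pass (adjusted p = 0.197).

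Of 8 tested genes of propeptide cleavage and crosslinking, 2 fell. Loxl2, which crosslinks collagen, kept its call in all 10 such omissions (log2 fold change -0.51, adjusted p = 0.02002). The other was Adamts14, a procollagen protease averaging 0.563 FPKM (-0.25, adjusted p = 0.0276), named after its value was seen. It reached 0.5 FPKM in all 5 control libraries and in 0 labelled knockdown libraries, so the filter kept it only through the group where it was high and its call carries no weight. That call was also lost with the length trend removed (adjusted p = 0.217) and with the replicate block (0.0681). Bmp1, the protease that removes the end pieces of fibrillar collagens, had the highest level of the list, at 10.7 ± 1.42 and 12.4 ± 1.51 FPKM (adjusted p = 0.243). Among 6 tested collagen receptors, Itgb1, the shared chain of collagen-binding integrins, went from 42.7 ± 0.909 to 30.0 ± 3.62 FPKM without overlap (log2 fold change -0.50, adjusted p = 0.00852), again called in all 10 such omissions. Mrc2, which takes up collagen for breakdown, fell too (log2 fold change -0.41, adjusted p = 0.0329). The Mrc2 call survived 2 of 10 omissions and was lost with the length trend removed (0.0582). Ddr1, a receptor kinase for collagen, did not pass (-0.73, adjusted p = 0.0791).

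Of 8 tested genes of collagen breakdown and its inhibitors, 1 fell: Mmp14, a membrane-bound collagenase, from 8.90 ± 0.615 to 7.22 ± 0.742 FPKM (adjusted p = 0.0406). That call survived 2 of 10 omissions and was lost with the length trend removed (adjusted p = 0.0829) and with the replicate block (0.0511). Mmp12, a macrophage protease and the most abundant of the list, stood at 31.8 ± 9.704 and 27.2 ± 9.63 FPKM (adjusted p = 0.525). Of 12 tested non-collagen basement membrane genes, 3 fell. Nid1, which links laminin to type IV collagen, went from 7.68 ± 1.18 to 3.78 ± 1.16 FPKM without overlap (log2 fold change -0.89, adjusted p = 0.0103), and the laminin chain Lamc1 from 2.96 ± 0.0912 to 1.97 ± 0.348 FPKM without overlap (adjusted p = 0.0134). Both were called in all 10 omissions of a single library. Sparc, which binds type IV and fibrillar collagen, had a log2 fold change of -0.70 (adjusted p = 0.0295), and its call survived 4 of 10 omissions.

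Of 11 tested fibril-binding genes, 4 fell. Lum, a small proteoglycan that spaces fibres, averaged 18.6 ± 2.87 FPKM under AAV8-NC and 10.46 ± 4.54 FPKM in the labelled knockdown libraries (adjusted p = 0.0381, log2 fold change -0.87). Thbs1 (log2 fold change -0.81, adjusted p = 0.0264) and Fn1, the fibronectin on which fibres assemble and also a product of hepatocytes (-0.32, adjusted p = 0.0422), fell as well. The fourth was Fbn1, fibrillin of elastic microfibrils, named after its value was seen (-0.37, adjusted p = 0.0424). Fbn1 reached 0.5 FPKM in 5 control libraries and 1 labelled knockdown library, so its call, too, carries no weight, and it was lost with the length trend removed (0.0717) and with the replicate block (0.0958). Of 10 omissions of a single library, the call of Thbs1 survived 5, that of Lum 3, and those of Fn1 and Fbn1 2 each. Fn1 was not called with the length trend removed (adjusted p = 0.205), with the replicate block (0.0985) or with median-of-ratios scaling (0.0861). Dcn, the most abundant small proteoglycan of the list, stood at 44.0 ± 5.27 and 42.0 ± 9.99 FPKM (adjusted p = 0.713). With the length trend removed, 10 of the 65 were called lower and 1 higher, where all tested genes gave 5.46% and 6.78%.

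**Figure D5:**
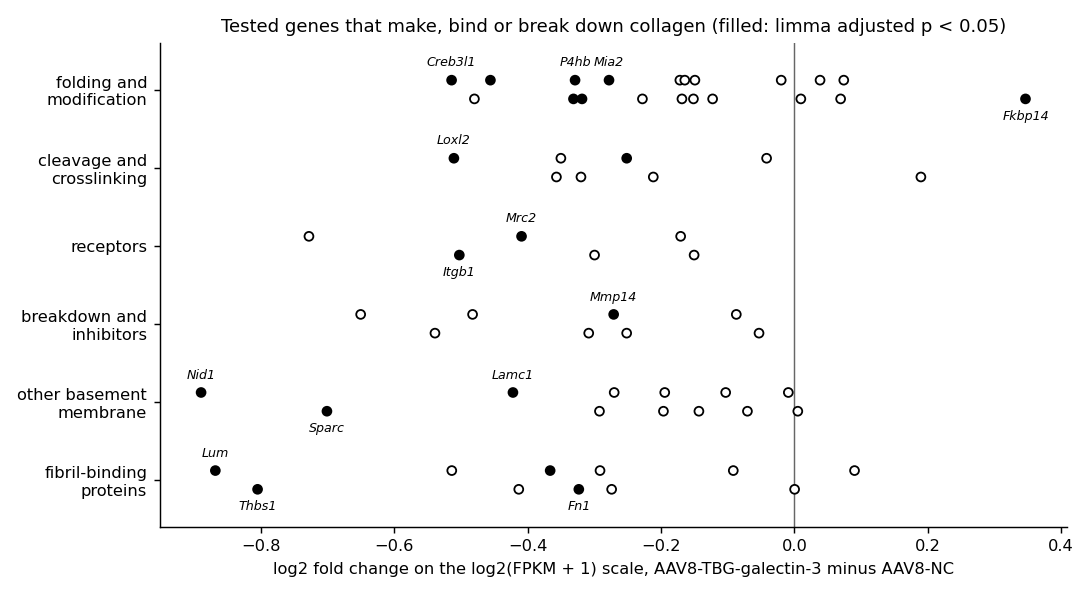
Log2 fold change, on the log2(FPKM + 1) scale, of the tested genes in the 6 lists; points are genes, filled where the limma adjusted p is under 0.05. Most points lie left of 0, with Nid1 and Lum farthest among the named genes, and Fkbp14 is the filled point right of 0.

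Markers of the cells that can make collagen, and of other liver cells, were read from 9 lists. Over all 13471 tested genes, limma called 9.65% lower and 7.13% higher. At an unadjusted p under 0.05, 19.6% were lower and 13.9% higher. With lists of 1 to 10 tested genes, unadjusted counts such as 2 of 10 or 1 of 5 lower are close to that share. Of 10 stellate cell markers, Reln and Ngfr were called lower (adjusted p = 0.0159 and 0.0367; 0.0301 and 0.0998 with the length trend removed) and 0 higher; at an unadjusted p under 0.05, 2 were lower and 1, Ecm1, was higher. Ecm1 stood at 30.3 ± 3.90 and 37.9 ± 6.12 FPKM (log2 fold change 0.30, adjusted p = 0.0975), and Hand2 and Lhx2 had log2 fold changes of 0.26 and 0.13 (adjusted p = 0.258 and 0.412). Lrat, the retinol-storing enzyme of these cells, stood at 3.78 ± 1.36 and 3.27 ± 0.551 FPKM (adjusted p = 0.640) and Des at 1.74 ± 0.131 and 1.92 ± 0.457 FPKM (0.635). The summed stellate markers, carried by Dcn and Ecm1, ranged from 88.0 to 111 FPKM under AAV8-NC and from 86.0 to 130 FPKM in the labelled knockdown libraries. Of 7 tested activated myofibroblast markers, 0 were called by limma and 2 were lower at an unadjusted p under 0.05. The sums of this list ranged from 154 to 385 and from 63.2 to 318 FPKM. Spp1 averaged 187 FPKM over all libraries and Vim, the next highest, 20.2 FPKM. These sums therefore describe Spp1 and not the other members of the list. Acta2, the actin of contractile myofibroblasts, stood at 2.63 ± 0.905 and 2.19 ± 0.531 FPKM (adjusted p = 0.496). In bulk liver, fewer cells of a type and less RNA per cell cannot be told apart.

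The counts that follow stand beside the 9.65% of all tested genes called lower by limma and the 19.6% lower at an unadjusted p under 0.05. Of 5 tested portal fibroblast markers, 0 were called and 1 was lower at an unadjusted p under 0.05, with sums of 14.1 to 27.6 FPKM and 7.72 to 21.2 FPKM. For 3 tested vascular smooth muscle markers these numbers were 0 and 1, with sums of 5.85 to 9.29 and 4.06 to 7.34 FPKM, and Cnn1 and Actg2 were at 0 in at least 5 libraries. For Cnn1 these were the 5 control libraries. The labelled knockdown libraries held 0.0332 to 0.0829 FPKM of it, far below the filter, and it was not tested. Of 6 mesothelium markers, 5 averaged under 0.5 FPKM and Upk1b was at 0 in at least 5 libraries; the sums were 0.862 to 3.24 and 0.462 to 1.84 FPKM. Of 8 sinusoidal endothelium markers, Pecam1 was called lower (adjusted p = 0.0445; 0.121 with the length trend removed), with sums of 19.1 to 33.8 and 16.7 to 23.8 FPKM. Of 4 tested cholangiocyte markers 0 were called and 2 were lower unadjusted, with sums of 8.01 to 25.2 and 2.72 to 16.0 FPKM. Of 6 tested Kupffer cell markers, Adgre1 and Cd5l were called lower (adjusted p = 0.00684 and 0.0160), with sums of 126 to 204 and 89.8 to 134 FPKM. Marco was higher without a call, at 3.07 ± 4.59 and 4.40 ± 2.78 FPKM (log2 fold change 0.70, adjusted p = 0.410). Vsig4, C1qa and Clec4f were lower without a call (adjusted p = 0.114, 0.259 and 0.623). The 8 hepatocyte markers, led by Alb, summed to between 33444 and 42358 FPKM in every library. Among them Apob and Cps1 were called lower and Ttr higher (adjusted p = 0.00941, 0.00944 and 0.0268). The Ttr call was lost with the length trend removed (adjusted p = 0.0732) and with the replicate block (0.0786). It survived 5 of 10 omissions of a single library. The sums of all 9 lists overlapped between the groups, and the part of these cell types in the collagen results was not tested.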

How the data were processed

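Liver RNA was sequenced in 10 libraries, and the titles gave each sample its group and number. Libraries from poly(A) RNA were strand-marked with dUTP, per the labels' protocols. The submitters' processing notes name cutadapt 1.9, HISAT2 2.0.4 and StringTie 1.3.4d. Those notes name a human build while the identifiers are mouse, so no gene coordinates are printed; promoter positions are those of RefSeq. The authors deposited FPKM per library and, per the file headers, their own fold ratio, its log2 value, p-value and q-value. Their test is not stated there.

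The filter, 0.5 FPKM in 5 or more libraries, left 13471 genes. Groups were tested on log2(FPKM + 1), where changes of low genes look smaller than they are, by limma 3.58.1 (R 4.3.3, mean-variance trend, no covariates, two-sided, Benjamini-Hochberg over all tested genes, threshold 0.05). Transcript length was the longest transcript in GENCODE M21, known for 97.9% of tested genes; its trend was removed by a spline with 4 degrees of freedom in each library. The fit was tested on simulated data with independent noise for each gene. Those data held no length trend and no shift shared within a library, so that test could not examine either. The named genes were every called collagen gene, 13 collagen genes of known importance, the most abundant tested gene of each class and list, and up to 4 called genes of each list with a mean of at least 1 FPKM; Col11a2, Col4a5, Col16a1, Serpinh1, Ddr1, Dcn, Adamts14, Fbn1, the markers and the low collagen genes were added after their values were seen. The members and lists were chosen with earlier results of these data known. The design text says mice were randomly assigned but not that each library is a separate mouse, so p-values measure the spread between these samples. No label separates batches.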

Additional observations from a re-analysis of the deposited data

Results flagged for a closer look

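Among 112 groups of 5 values (tested collagen genes and named genes on the log2(FPKM + 1) scale, and class sums and ratios), 11 had a highest or lowest library far from the rest, measured by its gap to the nearest library against the range of the group; chance gives about 1 in 20. Control 5 was low for Col5a1 at 2.13 FPKM (other control libraries 2.68 to 2.88), for Col4a2 at 5.71 FPKM (7.52 to 8.03), for Col18a1 at 84.7 FPKM (108 to 119), for Bmp1 at 8.27 FPKM (10.9 to 11.7) and for the summed FPKM of all collagens at 164 (212 to 231). Labelled knockdown 1 was low for Col18a1 at 83.1 FPKM (other labelled knockdown libraries 105 to 112), and so for the multiplexin sum at 84.1 FPKM (107 to 113). Control 4 was high for Thbs1 at 6.03 FPKM (2.31 to 3.06). Labelled knockdown 5 was high for the transmembrane sum at 0.566 FPKM (0.220 to 0.311), a class below the filter. The ratio of Col5a1 to Col5a2 was high in control 3 at 1.97 (1.34 to 1.47), and the ratio of Col6a1 to Col6a2 in labelled knockdown 2 at 4.498 (2.69 to 2.99).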

How the results depend on the processing

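With no filter on low genes, which raised the genes tested to 29657, 0 collagen genes were called lower and 0 higher by limma (11 and 2 at an unadjusted p under 0.05), 6 partner genes were called lower, and 682 and 511 of all genes were called lower and higher. With the length trend removed, 2 collagen genes, 10 partner genes and 720 of all genes were called lower. With array weights 11 collagen genes were lower and 1 higher, and 2047 of all genes lower and 1330 higher. A pseudocount of 0.1 FPKM left 0 collagen genes higher (2 unadjusted), where 927 of all genes were called higher. With the replicate block 7 collagen genes were lower and 1 higher, and 10 partner genes lower. Of all genes, 986 were then called lower and 769 higher. Same-numbered libraries had correlations of -0.015 to 0.114 in their departures from the group means. Only 3 of 10 libraries correlated best with their own number, so the numbers were not taken as pairs. Without 1 library at a time, the collagen genes called ranged from 0 to 10 lower and from 0 to 2 higher, partner genes from 5 to 24 lower, and all genes from 549 to 1736 lower and from 442 to 966 higher; the log2 fold change of Lgals3 ranged from -0.093 (without control 5; -0.0096 without labelled knockdown 2) to 0.26. Median-of-ratios scaling gave 1240 of all genes higher and 1060 lower, and quantile normalization 1165 and 1181. Col18a1, not called, turned to 0.064 with the length trend removed and to 0.029 without labelled knockdown 1, the highest of a range that began at -0.13 without control 5. The cause of these shifts was not tested.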
